A study of Mus musculus with 17 samples.

Results

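The genes described here encode the perineuronal net and the wider extracellular matrix of the brain. There were 10 of them, chosen by symbol among the 55450 genes counted in each library: the lecticans Acan, Bcan, Ncan and Vcan, the link proteins Hapln1 and Hapln4, the tenascins Tnr and Tnc, the hyaluronan synthase Has2 and the protease Mmp9. They were measured by RNA-Seq of polyadenylated RNA from the hippocampus of 17 adult mice. The labels give neither strain nor sex, and the study describes epileptic C57BL/6J animals and the use of both sexes. The control sgLacZ group (5 libraries) held sham animals, whereas the epileptic sgLacZ and epileptic sgKcna1 groups (6 libraries each) held animals made chronically epileptic with kainic acid in the amygdala. All 3 groups received AAV9 vectors and doxycycline, the drug that switches on the dCas9 activator (dCas9-VP64), which was directed by a guide to the bacterial gene LacZ, absent from the mouse, or to the potassium channel gene Kcna1.

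The activator was under a doxycycline-responsive promoter, a Camk2a promoter drove its transactivator to favour excitatory neurons, and the vectors were injected into the ventral hippocampus on the right side. Because a whole tissue was sequenced, fewer cells of a type and less RNA per cell cannot be told apart. No sham animals with the Kcna1 guide were analysed here. The labels do not tie the libraries to litters or batches, and P values measure the spread between these libraries.

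A perineuronal net is a lattice of matrix around the cell body and proximal dendrites of certain neurons, above all the fast-spiking parvalbumin interneurons. Hyaluronan, made at the cell membrane by synthases, forms its backbone, the lecticans bind to hyaluronan, link proteins hold that bond in place, and tenascin-R joins the far ends of the lecticans. Chondroitin sulphate chains on the lecticans carry much of the net's charge, and proteases such as MMP-9 and the ADAMTS enzymes cut the core proteins. Nets and the looser matrix have long been studied in temporal lobe epilepsy because they bear on inhibition and plasticity.

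The libraries held between 11839240 and 28311328 reads in genes, and levels are given as CPM, the count scaled to library size and composition. Kcna1, the targeted gene, had 25.5 to 44.0 CPM in control sgLacZ and 16.9 to 56.7 CPM in epileptic sgLacZ. In epileptic sgKcna1 it stood at 132.5 CPM in replicate 12 and at 13.9 to 29.5 CPM in the other 5 libraries, so the Kcna1 level of those 5 was inside or below the range of the epileptic sgLacZ libraries, and every direction below is for libraries labelled sgKcna1. Replicate 12 was also the shallowest library, with 41.5% of its reads unmapped, and epileptic sgLacZ replicate 4 had the smallest unmapped share at 11.0%. At least 20 reads of both Xist and Y-linked genes were found in 6 of the 17 libraries, and all 17 were kept in the main fit. The 6 were control sgLacZ replicates 16 and 23, epileptic sgLacZ replicate 8 and epileptic sgKcna1 replicates 1, 11 and 12. Xist against Y-linked reads gave 2 female and 3 male libraries in control sgLacZ. The numbers were 4 and 2 in epileptic sgLacZ and 2 and 4 in epileptic sgKcna1. In fits without the 6, every control left was male and epileptic sgLacZ replicates 4 to 7 were female, so sex and group were partly confounded.

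Levels of the members differed widely within the hippocampus. Per kilobase of exon, and as the median of the 17 libraries, Bcan (brevican, the lectican typical of the adult brain) was the most abundant at 69.7 CPM per kilobase, and it was above the next gene in 17 of 17 libraries. Hapln4 (the link protein Bral2) and Ncan (neurocan, secreted mainly by astrocytes) followed at 21.1 and 19.995 CPM per kilobase and did not separate, as Hapln4 was the higher in 11 of 17. Tnr (tenascin-R, made by oligodendrocytes, their precursors and some interneurons) stood at 6.10 and Hapln1 (the link protein Crtl1) at 4.22 CPM per kilobase, in that order in 15 of 17 libraries.

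A low group lay about an order of magnitude further down. Tnc (tenascin-C, high in development and in reactive tissue) had 0.586, Vcan (versican, found in precursor cells and loose matrix) 0.558, Mmp9 (the inducible gelatinase) 0.473 and Acan (aggrecan, the defining core protein of the net) 0.385 CPM per kilobase. Neighbours in this group changed places, since each was above the next in only 10 to 12 of 17 libraries. Has2 (a hyaluronan synthase) was last at 0.0482 CPM per kilobase, with 0 to 17 reads in a library.

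Several of these genes lie beside each other in pairs of a lectican and a link protein. On GRCm38.p6, Ncan occupies chr8:70093085-70120863 and Hapln4 chr8:70083529-70090862, with 2.22 kb between them. Vcan at chr13:89655309-89743027 is 43.5 kb from Hapln1 at chr13:89540529-89611832. Acan lies at chr7:79053226-79115099 and Bcan at chr3:87987531-88002175, where their neighbours are the link proteins Hapln3 and Hapln2. Tnr at chr1:159523729-159931729 overlaps the RefSeq gene Gm31348. The annotation used for counting was not given, so whether Gm31348 is the gene that shares reads with Tnr below is not known. Acan, Vcan and Hapln1 also overlap RefSeq genes, and their both-strand counts equalled the unstranded ones. The both-strand count of Has2, which overlaps Has2os, was 1.25 times the unstranded one. Tnc lies at chr4:63959785-64047015, Has2 at chr15:56665627-56694546 and Mmp9 at chr2:164940326-164955850.

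The promoters of Tnr, the member whose count passed the test in epilepsy, and of Acan, the core protein that defines the net, are shown because they differ in composition. Each runs from 250 bases before to 50 after the start (RefSeq, GRCm38.p6, both on the plus strand: Tnr chr1:159523519-159523818, Acan chr7:79052976-79053275). For Tnr the start used in the promoter set lies after the first base of the gene coordinates given above. Capitals mark GC boxes (GGGCGG on either strand, neighbouring matches overlapping), TATA boxes (TATAAA), cAMP response elements (TGACGTCA) and AP-1 sites (TGANTCA).
Tnr: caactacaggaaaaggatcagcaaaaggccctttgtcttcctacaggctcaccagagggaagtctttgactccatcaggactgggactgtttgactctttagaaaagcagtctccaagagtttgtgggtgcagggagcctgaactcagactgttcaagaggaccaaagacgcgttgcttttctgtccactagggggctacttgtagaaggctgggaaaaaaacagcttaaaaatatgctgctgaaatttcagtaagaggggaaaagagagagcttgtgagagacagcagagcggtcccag
Acan: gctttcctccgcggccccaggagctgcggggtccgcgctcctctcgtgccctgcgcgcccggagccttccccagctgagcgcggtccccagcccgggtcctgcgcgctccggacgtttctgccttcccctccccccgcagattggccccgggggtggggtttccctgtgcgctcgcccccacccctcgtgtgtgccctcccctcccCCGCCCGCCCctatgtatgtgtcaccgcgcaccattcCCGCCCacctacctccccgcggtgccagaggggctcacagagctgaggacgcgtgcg
The Tnr window holds none of these motifs, 48.0% G and C and 3 CpG pairs. The Acan window holds 3 GC boxes, 74.0% G and C and 31 CpG pairs. Among 32851 mouse promoters of this length, 35.7% hold a GC box, 13.6% a TATA box, 7.81% an AP-1 site and 1.79% a cAMP response element, and the median is 52.7% G and C with 7 CpG pairs. Of the 7 members with a promoter in the RefSeq set, Ncan and Tnc each hold a TATA box and a GC box.

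The first comparison asked what chronic epilepsy did to matrix genes, with the LacZ guide in both groups. Of the 9 members that passed the filter on low counts (Has2 did not), only Tnr passed the test in epileptic sgLacZ against control sgLacZ, and it rose. Over all 17615 genes tested with the quasi-likelihood test of edgeR and Benjamini-Hochberg adjustment, 1940 passed, which is 11.0% (7.26% higher and 3.76% lower). A count of 1 in 9 members is 11.1%, so as a group the members were called at the background share. The estimate was above 0 for 8 of the 9, and for 51.95% of all genes. The CPM ranges of the 2 groups overlapped for each of the 9, whereas they did not overlap for 4.39% of all genes tested. The count of 1940 is not stable: it was 0 when any 1 of epileptic sgLacZ replicates 4, 7 and 9 or control sgLacZ replicates 13, 14, 16 and 23 was left out, and 5526 without epileptic sgLacZ replicate 5.

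**Figure D1:**
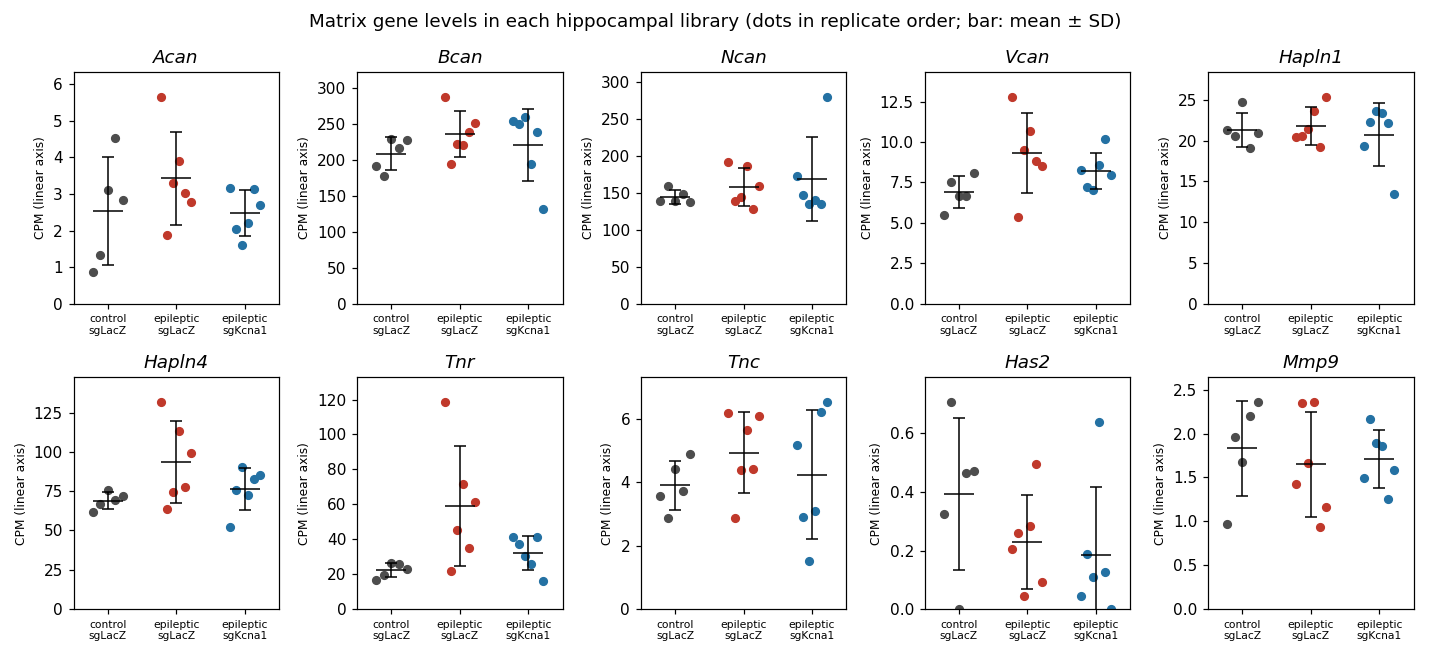
CPM of each of the 10 genes in the 17 hippocampal libraries, with linear axes starting at 0. Dots are libraries in replicate order, and horizontal bars with whiskers are the group mean ± SD (n = 5, 6 and 6). In the Tnr and Vcan panels 5 of 6 epileptic sgLacZ dots lie above every control dot, and Ncan holds a lone epileptic sgKcna1 dot at 280.0 CPM.

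Tnr had 16.7, 19.8, 26.1, 25.7 and 22.9 CPM in the control sgLacZ libraries. In the epileptic sgLacZ libraries, replicates 4 to 9, it had 118.6, 21.9, 45.5, 71.5, 35.0 and 61.3 CPM. Replicate 5 lay among the controls, the other 5 lay above every control, and replicate 4 was highest. The mean was 59.0 ± 34.2 CPM (SD, n = 6) against 22.2 ± 4.00 CPM (SD, n = 5), an estimate of 1.41 ± 0.33 log2 units (SE) or 2.66-fold, with adjusted P = 0.0327 in edgeR. The exact permutation test on log2 CPM gave P = 0.0173 (two-sided), where the smallest P possible was 0.00216. The call was lost in 7 of 17 fits that left out 1 library, those without the 7 libraries just named, with adjusted P up to 0.0923, and the estimate was 1.08 without replicate 4. Without the 6 libraries that held reads of both sexes it was 1.61 (adjusted P = 0.0509), in a fit where every control left was male.

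The Tnr count depended on which part of the gene was read. The unstranded counting set aside reads that fall where Tnr shares bases with another gene, and the deposited strand columns allow those reads to be recovered, whichever of the 2 genes they came from. Outside the shared stretches Tnr was higher in epilepsy, as given above. In the shared stretches the level was 23.4 ± 4.29 CPM (SD, n = 5) in control sgLacZ and 14.6 ± 4.29 CPM (SD, n = 6) in epileptic sgLacZ, the opposite direction (exact permutation P = 0.0173, and 0.0935 after adjustment over 27 such tests, which is also the adjusted value for the reads outside).

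With the reads of both kinds added, Tnr was 45.6 ± 7.17 CPM (SD, n = 5) in control sgLacZ and 73.6 ± 30.8 CPM (SD, n = 6) in epileptic sgLacZ. The log2 fold change then was 0.67, which still passed in the edgeR fit of the added counts (adjusted P = 0.0412). As a ratio of geometric means, Tnr was 2.34-fold higher without the shared reads and 1.52-fold higher with them.

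**Figure D2:**
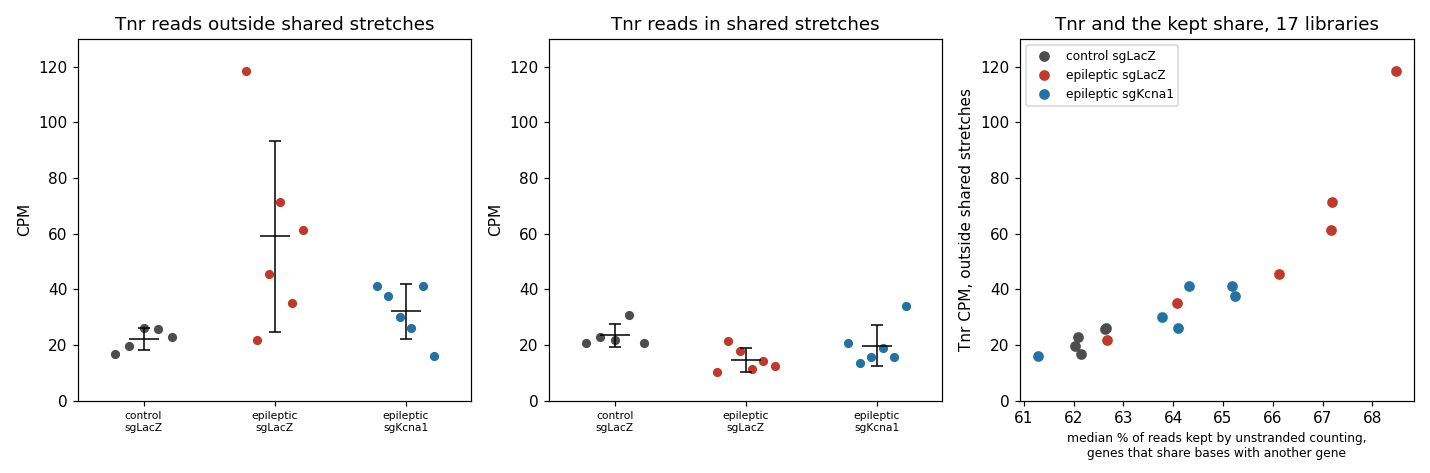
Tnr reads outside (left) and inside (middle) the stretches it shares with another gene, in CPM on the same linear axis, by library with mean ± SD, and (right) Tnr CPM outside those stretches against the median percentage of reads that unstranded counting kept over 2779 genes that share bases. The control and epileptic groups move in opposite directions in the left and middle panels, and the libraries with the highest kept share have the highest Tnr.

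The kept share is a property of the whole library. Over 2779 genes that share bases with another gene, unstranded counting kept a median of 62.0% to 62.6% of reads in the control sgLacZ libraries, 62.7% to 68.5% in epileptic sgLacZ and 61.3% to 65.2% in epileptic sgKcna1. The first 2 ranges did not overlap, if by a narrow margin, so the kept share and the group cannot be told apart in that comparison. Replicates 4, 7, 9 and 6 of epileptic sgLacZ, with the 4 highest kept shares of the 17 libraries, also had the 4 highest Tnr levels. With the kept share as a covariate the log2 fold change of Tnr was -0.13 (edgeR, adjusted P = 0.965) and 0 of 17615 genes passed.

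The 4 lecticans did not pass the test, and all 4 estimates were above 0. Aggrecan was the most variable of them. Acan had 0.866, 1.33, 3.09, 4.53 and 2.83 CPM in control sgLacZ and 5.65, 1.88, 3.29, 3.91, 3.02 and 2.78 CPM in epileptic sgLacZ, ranges that overlap over most of their length. The estimate was 0.45 ± 0.35 log2 units (SE; adjusted P = 0.372 in edgeR), with an interval of -0.24 to 1.14. Acan had 16 to 166 reads a library. Without the 6 libraries that held reads of both sexes the estimate was 0.98 (adjusted P = 0.121).

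Brevican and neurocan, the abundant lecticans, were more tightly measured. Bcan had 191.9, 177.1, 228.8, 216.4 and 227.6 CPM in control sgLacZ and 288.0, 194.4, 222.7, 220.6, 239.0 and 251.5 CPM in epileptic sgLacZ, where 3 of 6 libraries were above every control. The log2 fold change was 0.18, with an interval (95%, from the SE) of -0.11 to 0.47. Ncan had 138.2 to 158.8 CPM in control sgLacZ and 128.4 to 191.6 CPM in epileptic sgLacZ, a log2 fold change of 0.13 with an interval of -0.20 to 0.46. For both genes the interval leaves out a 1.5-fold change in either direction, and it does not show that the groups were equal.

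Versican came nearer to the threshold. Vcan had 5.47, 7.53, 6.69, 6.66 and 8.07 CPM in control sgLacZ and 12.8, 5.38, 9.53, 10.7, 8.86 and 8.54 CPM in epileptic sgLacZ. Of the epileptic libraries 5 lay above every control, and replicate 5 lay below every control. The log2 fold change was 0.44 ± 0.18 (SE), with an unadjusted P = 0.0274 and an adjusted P = 0.101 in edgeR. An unadjusted P of this size or smaller is common here, since 34.7% of all genes tested had P under 0.05. Vcan passed with limma voom (0.42, adjusted P = 0.0255) and without epileptic sgLacZ replicate 5 (0.55, adjusted P = 0.0138).

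The 2 link proteins behaved differently from each other in level but neither passed. Hapln4, the Bral2 link protein found at nets, had 61.8, 66.6, 75.4, 69.4 and 71.8 CPM in control sgLacZ and 131.7, 63.3, 74.7, 112.9, 77.4 and 99.4 CPM in epileptic sgLacZ. Replicates 4, 7, 8 and 9 were above every control. The estimate was 0.43 ± 0.17 log2 units (SE; unadjusted P = 0.0176 and adjusted P = 0.0809 in edgeR). It too passed with limma voom (0.38, adjusted P = 0.0234) and without epileptic sgLacZ replicate 5 (0.52, adjusted P = 0.0176). Hapln1 had 19.1 to 24.8 CPM in control sgLacZ and 19.2 to 25.4 CPM in epileptic sgLacZ, with a log2 fold change of 0.03 and an interval of -0.23 to 0.29. Its 2 ranges coincided almost end to end.

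Tenascin-C and MMP-9, which are known to be induced by injury and activity, did not pass in these chronic animals. Tnc had 3.57, 2.87, 4.43, 3.73 and 4.89 CPM in control sgLacZ and 6.20, 2.87, 4.39, 5.66, 4.40 and 6.08 CPM in epileptic sgLacZ, an estimate of 0.34 ± 0.31 log2 units (SE; adjusted P = 0.436 in edgeR). Mmp9 had 0.974 to 2.36 CPM in control sgLacZ and 0.940 to 2.36 CPM in epileptic sgLacZ, which is 18 to 58 reads, and a log2 fold change of -0.15 with an interval of -0.70 to 0.41. Has2 had 6, 17, 0, 7 and 8 reads in the control libraries and 6, 5, 1, 7, 10 and 2 reads in the epileptic sgLacZ libraries. A count of 0 allows up to 3 reads, or 0.106 to 0.253 CPM in these libraries, so no fold is given for Has2, and the exact permutation test gave P = 0.455.

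**Figure D3:**
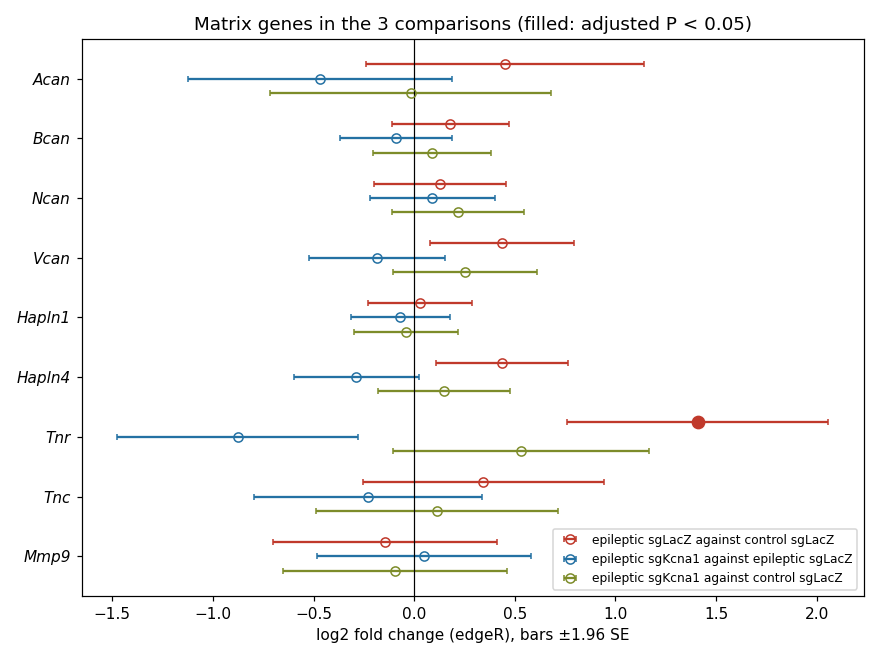
Log2 fold changes of the 9 tested members in the 3 comparisons, on a linear axis of log2 units. Circles are edgeR estimates and bars are 95% intervals, filled where the adjusted P is under 0.05. Tnr in epileptic sgLacZ against control sgLacZ is the only filled circle, and the comparisons share groups, so their estimates are not independent.

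The second comparison asked whether the Kcna1 guide altered matrix genes within epileptic animals. No member passed in epileptic sgKcna1 against epileptic sgLacZ, and 0 of 17615 genes passed in edgeR (0.0%), although 3387 had an unadjusted P under 0.05 (19.2%, of which 8.69% higher and 10.5% lower) and DESeq2 called 134. The CPM ranges overlapped for every member, and did not for 0.483% of all genes. Tnr had 41.2, 37.5, 30.2, 26.0, 41.1 and 16.1 CPM in the libraries labelled sgKcna1 (replicates 1, 2, 3, 10, 11 and 12). These lie inside the epileptic sgLacZ range apart from replicate 12, which is lower than every one of them. The estimate for Tnr was -0.88 ± 0.31 log2 units (SE; unadjusted P = 0.00998 and adjusted P = 0.213 in edgeR), and -0.50 with shared-stretch reads added (adjusted P = 0.211). Without epileptic sgLacZ replicate 5 it passed, with -1.05 and an adjusted P = 0.0421, and without replicate 4 the estimate was -0.55.

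Of the 9 members 7 had estimates below 0, as had 8937 of the 17615 genes. Acan had 1.61 to 3.16 CPM in epileptic sgKcna1, a narrower range than in either sgLacZ group, and its log2 fold change was -0.47 with an interval of -1.13 to 0.19. Without the 6 libraries that held reads of both sexes, Acan was at -0.85 (adjusted P = 0.390) and Tnc at -1.01 (adjusted P = 0.352). Hapln4 had 52.3 to 90.2 CPM and a log2 fold change of -0.29 (adjusted P = 0.307 in edgeR). Vcan (-0.18), Tnc (-0.23), Bcan (-0.09), Hapln1 (-0.07), Ncan (0.09) and Mmp9 (0.05) had smaller log2 fold changes. Has2 had 1, 5, 2, 11, 3 and 0 reads.

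Replicate 12 of epileptic sgKcna1 stood apart for the matrix genes as it did for Kcna1. It had the highest Ncan of all libraries, at 280.0 CPM against 134.8 to 173.3 CPM in the other 5 of its group, and the highest Tnc at 6.53 CPM. It also had the lowest Bcan, 131.4 CPM against 193.8 to 259.5 CPM, and the lowest Hapln1, 13.4 CPM against 19.3 to 23.7 CPM. Without it no member passed in this comparison either, and the log2 fold change of Ncan went from 0.09 to -0.12.

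The third comparison set epileptic sgKcna1 against control sgLacZ. No member passed, 0 of 17615 genes passed in edgeR (0.0%) with 1192 at an unadjusted P under 0.05 (6.77%, of which 4.29% higher and 2.48% lower), and DESeq2 called 39. Tnr was above every control in 4 of 6 libraries labelled sgKcna1 and below every control in replicate 12, with a mean of 32.0 ± 9.87 CPM (SD, n = 6) and a log2 fold change of 0.53 with an interval of -0.10 to 1.17. Ncan (0.22), Vcan (0.25), Hapln4 (0.15), Tnc (0.11), Bcan (0.09), Acan (-0.02), Hapln1 (-0.04) and Mmp9 (-0.10) were all within 0.26 of 0 on the log2 scale. The epileptic sgKcna1 libraries are the same in both comparisons, so the 2 sets of values are not independent.

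A wider set of 61 matrix genes was examined beside the members, of which 60 passed the filter. In epileptic sgLacZ against control sgLacZ, 4 of 60 passed (6.67%, beside 11.0% of all genes), 3 higher and 1 lower. Their median log2 fold change was 0.20 and that of the 9 members 0.34, beside 0.02 over all genes tested. Of the 11 other link proteins and hyaluronan genes none passed. None of the 7 matrix receptors, which include the chondroitin sulphate receptor Ptprs, passed either. An unadjusted P under 0.05 with a higher estimate was found for 5 of the 7, and for 18.8% of all genes tested. Among 9 matrix proteases 1 passed and was lower, and among 6 protease inhibitors and 11 other proteoglycans 1 each passed and was higher.

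Biglycan and MT1-MMP, genes that share no bases with another gene to a measurable degree, were called in opposite directions. Bgn, a small leucine-rich proteoglycan, had 7.30 to 14.6 CPM in control sgLacZ and 25.2, 14.3, 21.0, 27.7, 11.0 and 19.8 CPM in epileptic sgLacZ, where 4 of 6 were above every control. It rose by 0.74 ± 0.23 (SE, log2, edgeR, adjusted P = 0.0455), and the call was lost in 13 of 17 fits that left out 1 library. Mmp14, the membrane-type protease MT1-MMP, had 36.5, 32.4, 32.7, 31.1 and 32.3 CPM in control sgLacZ and 21.2, 25.0, 23.0, 14.9, 24.7 and 18.8 CPM in epileptic sgLacZ. Every epileptic library was below every control, and the gene fell by 0.64 on the log2 scale (SE 0.18, adjusted P = 0.0390), a call lost in 9 of 17 fits without 1 library. With the kept share as a covariate neither gene passed, Bgn at 0.083 (adjusted P = 0.981) and Mmp14 at -0.16 (adjusted P = 0.965), and neither passed with the unmapped share (0.53 and -0.42) or without the 6 libraries (0.86 and -0.72). Bgn was also not called with sex as a covariate (adjusted P = 0.0741) or without the 2 libraries of extreme unmapped share (adjusted P = 0.0558). In the libraries labelled sgKcna1 Mmp14 was 18.2 to 21.9 CPM, apart from replicate 12 at 40.6 CPM, and Bgn was 9.80 to 16.2 CPM.

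Timp3, an inhibitor of matrix proteases bound to the matrix, and Chpf2, a chondroitin polymerising factor, were the other called genes, and both lie over another gene. Timp3 had 4.93 to 7.78 CPM in control sgLacZ and 61.7, 7.36, 18.4, 35.1, 12.3 and 26.2 CPM in epileptic sgLacZ, a log2 fold change of 2.03 (edgeR, adjusted P = 0.0310). Only 6.96% ± 1.23 (SD, n = 5) of its reads were kept by unstranded counting in control sgLacZ and 26.4% ± 15.9 (SD, n = 6) in epileptic sgLacZ. With the shared reads added its log2 fold change was 0.03 (adjusted P = 0.886). Chpf2 went from 1.27 (adjusted P = 0.0330) to -0.24 (adjusted P = 0.104) in the same way. For both genes, as for Tnr, reads outside the shared stretches were higher and reads inside them lower in epileptic sgLacZ.

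**Figure D4:**
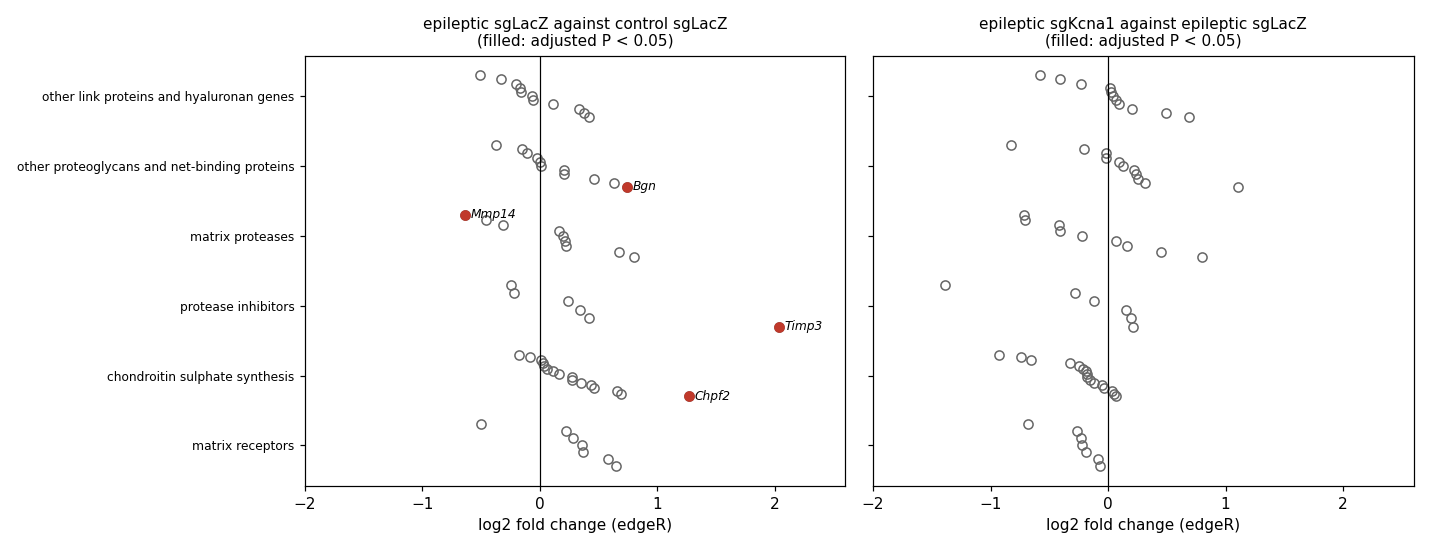
Log2 fold changes (edgeR) of 60 other matrix genes in 6 groups, for epileptic sgLacZ against control sgLacZ (left) and epileptic sgKcna1 against epileptic sgLacZ (right). Each circle is a gene, filled and named where the adjusted P is under 0.05. The 4 named genes are on the left, and the right panel has none.

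Among the 16 genes of chondroitin sulphate synthesis only Chpf2 passed in epileptic sgLacZ against control sgLacZ. That is 6.25%, beside 11.0% of all genes tested. Of the 16 estimates 14 were above 0, with a median of 0.22 on the log2 scale. Over all genes tested 51.95% of estimates were above 0 and the median was 0.02. In epileptic sgKcna1 against epileptic sgLacZ none of the 60 passed. The 3 with the smallest P were Bgn (log2 fold change -0.83), Timp3 (-1.39) and Sema3a (1.11), each with an adjusted P = 0.213 in edgeR, and DESeq2 called these 3. With shared reads added, Timp3 was at -0.07 in this comparison (adjusted P = 0.714). Sema3a is a guidance protein that binds the chondroitin sulphate of nets, and it had 10.9, 9.74, 11.5, 7.22, 3.50 and 4.76 CPM in the libraries labelled sgKcna1 against 2.35 to 5.21 CPM in epileptic sgLacZ.

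In epileptic sgKcna1 against control sgLacZ none of the 60 passed in edgeR either. Sema3a had 1.46 to 4.44 CPM in control sgLacZ, and the estimate was 1.57 ± 0.33 log2 units (SE; adjusted P = 0.246 in edgeR). DESeq2 called it, as did limma voom (adjusted P = 0.0465). In edgeR it passed with the unmapped share as covariate (adjusted P = 0.0276) and without the 2 libraries of extreme unmapped share (adjusted P = 0.0378). In 7 of 11 alternatives and in all 17 fits that left out 1 library it did not pass. Nptx2, a pentraxin of excitatory synapses on parvalbumin cells, had 18.3 to 21.99 CPM in control sgLacZ. In epileptic sgKcna1 it had 34.9, 30.2, 33.1, 33.0, 24.5 and 69.8 CPM, with no overlap. In epileptic sgLacZ it had 21.3 to 43.2 CPM, an estimate of 0.63 against control sgLacZ (edgeR, adjusted P = 0.0640). For epileptic sgKcna1 against control sgLacZ the log2 fold change of Nptx2 was 0.88 (edgeR, adjusted P = 0.389). It passed with the unmapped share as covariate (0.78, edgeR, adjusted P = 0.0445) and did not pass in 10 of 11 alternatives. Ranges that do not overlap were found for 1.14% of all genes in that comparison. Mmp14 was next, at -0.47 (edgeR, adjusted P = 0.674). It passed with limma voom (-0.65, adjusted P = 0.0335) and with the unmapped share as covariate (-0.56, edgeR, adjusted P = 0.0276). Without the 2 libraries of extreme unmapped share it passed too (-0.69, edgeR, adjusted P = 0.0334). In 8 of 11 alternatives it did not pass, and it passed in 1 of 17 fits that left out 1 library.

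Markers of the cells that make or wear the matrix were read beside these results. Of 7 markers of parvalbumin and other GABAergic neurons, 1 passed higher (Kcnc1) in epileptic sgLacZ against control sgLacZ. That is 14.3%, beside 11.0% of all genes tested. The summed level of the 7 was 951.9 to 1452 CPM against 1293 to 1594 CPM. Estimates were higher for 4 of the 7 (Kcnc1 0.63, Lhx6 0.49, Gad2 0.27 and Slc32a1 0.14) and lower for Gad1 (-0.12), Pvalb and Sst, and Sst alone had 602.1 to 817.9 CPM in control sgLacZ. Pvalb had 32.6, 119.2, 56.7, 35.3, 59.6 and 30.4 CPM in epileptic sgLacZ and 89.8 to 126.0 CPM in control sgLacZ, and its log2 fold change of -1.01 did not pass (edgeR, adjusted P = 0.0524). Sst likewise did not pass at -0.80 (adjusted P = 0.0505). In both genes replicate 5 alone lay inside the control range, as it did for Tnr.

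Glial markers were read in the same way. Of 6 astrocyte markers 2 passed, which is 33.3%, beside 11.0% of all genes tested. Both were higher in edgeR (Gfap at 0.60, adjusted P = 0.0447, and Aldh1l1 at 0.33, adjusted P = 0.0391). The summed level was 2291 to 3039 CPM in epileptic sgLacZ against 2005 to 2364.5 CPM in control sgLacZ. None of 5 oligodendrocyte precursor markers passed, with sums of 266.9 to 367.2 CPM against 257.3 to 285.5 CPM, and none of 5 oligodendrocyte markers passed, with sums of 4570 to 6776 CPM against 6132 to 8835 CPM. No gene of these lists was at 0.

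Lists for other cells and regions were read as well. All 5 choroid plexus markers had higher estimates in epileptic sgLacZ against control sgLacZ (median 0.70, none passed) and all 5 had lower ones in epileptic sgKcna1 against epileptic sgLacZ (median -1.02, none passed), the directions that Bgn had. Their summed level was 1199 to 12525 CPM in control sgLacZ, 4419 to 11449 CPM in epileptic sgLacZ and 292.2 to 7825 CPM in epileptic sgKcna1. In the first comparison 1 of 4 ependymal markers passed as lower (Tmem212). Of 5 excitatory markers 1 passed as higher (Slc17a7), and of 5 microglial markers 1 passed as higher (Csf1r). Of 6 hippocampal field markers Wfs1 passed as higher and Bok as lower. These are 25%, 20%, 20% and 33.3% of their lists, beside 11.0% of all genes tested. Estimates were lower for 3 of the 5 excitatory and 3 of the 5 microglial markers. They were lower for 2 of the 4 ependymal and 3 of the 6 hippocampal field markers. None of 6 vascular and meningeal markers passed. The part that these cells had in the matrix values was not tested.

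Gene length moved with the comparison too. Over all genes tested in epileptic sgLacZ against control sgLacZ, the median log2 fold change went from -0.39 for exonic lengths up to 1500 bases to 0.20 for those over 9000 bases, and 14.2% of the longest class passed as higher against 0.980% of the shortest. The 9 tested members lie in the 4 longest classes, whose medians were 0.06 to 0.20. The estimates of Acan (0.45), Vcan (0.44), Hapln4 (0.43), Tnc (0.34), Bcan (0.18) and Tnr lay above the median of their own class, and those of Ncan, Hapln1 and Mmp9 below it.

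**Figure D5:**
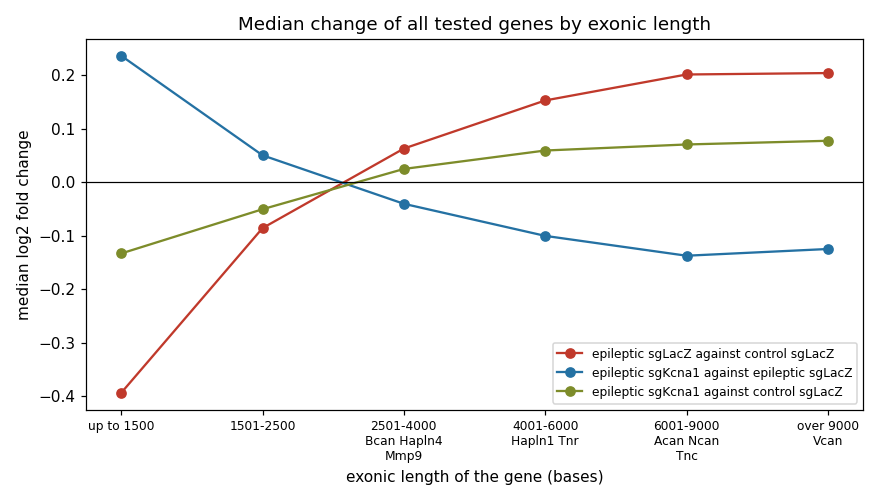
Median log2 fold change of all tested genes with an exonic length (15794 of 17615) in 6 classes of length, for the 3 comparisons, with the members named under their class. The epileptic sgLacZ against control sgLacZ line climbs from -0.39 to 0.20, and the epileptic sgKcna1 against epileptic sgLacZ line falls from 0.24 to -0.12 in the longest class.

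Lastly, the genes whose levels most resembled each member over the 17 libraries were sought among 11382 to 11383 symbol-bearing genes of at least 5 CPM. Tnr was followed most closely by Adar (Pearson's r = 0.99), Trp53bp1 (0.99) and Copa (0.99), and of these Adar and Trp53bp1 also share bases with another gene, as their both-strand count is 3.26 and 2.04 times the unstranded one. Ncan was most like Pcdh8 (0.96), Caln1 (0.94) and Camsap1 (0.93), Bcan like L3mbtl2, Cplx1 and Tmem63b (each 0.93), and Hapln4 like Kalrn (0.93), Phldb1 (0.93) and Arhgap23 (0.91). Vcan was most like Dst (0.90), AI314180 (0.89) and Herc2 (0.88), and Hapln1 like Tarbp2, Fbxo27 and 2610027L16Rik (0.90, 0.90 and 0.89).

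The low members had weaker resemblances, with Acan most like Sos1 (0.86), Col4a1 (0.83) and Pclo (0.83), Tnc like Fam184a (0.84), Fam70a (0.81) and Rfc1 (0.80), and Mmp9 like Cdk7 (0.80), Dusp6 (0.76) and Klf10 (0.76). Among the members themselves, Tnr was most like Vcan (0.79) and Bcan (0.72), and Ncan and Hapln1 ran in opposite directions (-0.65), a value in which epileptic sgKcna1 replicate 12 holds both extremes. These correlations describe libraries that share depth and composition differences and carry no test.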

How the data were processed

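Hippocampal polyadenylated RNA of 17 mice was sequenced by the authors, who deposited raw counts per gene, unstranded and by strand. The submitters' processing notes name STAR 2.7 and mm10. The forward and reverse counts were nearly equal in each library (ratio 0.994 to 0.998), so tests used the unstranded column. An unstranded library kit is named in the labels and a stranded one in the study's methods, so what the strand columns hold rests on this ratio. The annotation was not given in the sources used here. Groups were taken from the labels. The 10 members and all gene lists were chosen with earlier results of these data known.

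Symbols were found for 32620 of 55450 genes. Counts were scaled by TMM and all 17 libraries were fitted in 1 quasi-likelihood model (edgeR 4.0.16, R 4.3.3) after filtering on low counts by group, with Benjamini-Hochberg adjustment over 17615 genes and a threshold of 0.05. The study's tool, DESeq2 (1.42.0 here), limma (3.58.1) and others were alternatives. Correlations used log2 CPM with a prior count of 2. A gene was held to share bases where its both-strand count exceeded the unstranded one by over 5%. Reads in shared stretches were taken as the both-strand minus the unstranded count. Exon lengths came from an mm9 annotation, and sequences and coordinates from RefSeq (GRCm38.p6). Gene names followed a rule: the members, Kcna1, other matrix genes past the threshold or, failing that, the 3 with the smallest P, markers of lists quoted, and the 3 genes most like each member. The fits were tested on simulated data. Depth was 11839240 to 28311328 reads in genes, and 3 reads corresponded to 0.106 to 0.253 CPM. Floors cover counting error only. Libraries of 1 group differed by more than sampling noise (chi-square per degree of freedom at least 8.67 in 40 pairs).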

Additional observations from a re-analysis of the deposited data

Results flagged for a closer look

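Ncan in epileptic sgKcna1 replicate 12 was far above the rest of its group, at 280.0 CPM against 134.8 to 173.3 CPM in the other 5 libraries. Has2 in epileptic sgKcna1 replicate 10 was likewise far from the others, at 0.641 CPM (11 reads) against 0 to 0.187 CPM. Dixon's criterion was met in 2 of 30 sets of a gene and a group, and chance alone meets it in about 1 in 20.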

How the results depend on the processing

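No paired analysis was possible because the 3 groups share no replicate number. Leaving out the 2 libraries of extreme unmapped share, adding the kept share as a covariate and leaving out the 6 libraries with Xist and Y-linked reads were chosen after seeing the data. In epileptic sgLacZ against control sgLacZ, where 1940 genes passed, 3634 passed with DESeq2, 7301 with limma voom, 428 with the unmapped share as covariate, 516 with sex as covariate, 3045 with only the 2 groups, 3106 without the 2 extreme libraries, 0 with the kept share, 0 without the 6 libraries, and 0 to 5526 without 1 library. Of the members 3 passed with voom, 0 with the kept share, 0 without the 6 libraries, and 0 to 3 without 1 library. Of the other matrix genes 10 passed with DESeq2, 22 with voom, 2 with the unmapped share, 10 with only the 2 groups, 7 without the 2 libraries, 0 with the kept share, 0 without the 6, and 0 to 18 without 1 library. In epileptic sgKcna1 against epileptic sgLacZ, 1 gene passed with no filter, 134 with DESeq2, 12 with voom and 0 to 1508 without 1 library, with 0 to 1 member, and 3 (DESeq2) or 0 to 9 (1 library left out) other matrix genes. In epileptic sgKcna1 against control sgLacZ, 39 passed with DESeq2, 71 with voom, 266 with the unmapped share, 88 without the 2 libraries, 1 with the kept share and 0 to 14 without 1 library, and of the other matrix genes 1, 2, 3 and 2 in the first 4 of these and 0 to 1 without 1 library. The causes were not tested.

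Signs of log2 fold changes turned as follows. In epileptic sgLacZ against control sgLacZ, with the kept share: Acan -0.21, Bcan -0.23, Vcan -0.0428, Hapln1 -0.24 and Tnr -0.13, with the unmapped share Bcan -0.0345 and Hapln1 -0.12, with both strands added Chpf2 -0.24, without the 6 libraries Mmp9 0.21, and Hapln1 -0.0198 to 0.0885 without 1 library. In epileptic sgKcna1 against epileptic sgLacZ, with the unmapped share Bcan 0.14, Ncan -0.10 and Hapln1 0.0907, without the 2 libraries Bcan 0.0824, Ncan -0.0539 and Hapln1 0.0042, with the kept share Bcan 0.11, Vcan 0.084 and Hapln1 0.0662, with voom Ncan -0.0966, without the 6 libraries Ncan -0.23 and Hapln1 0.0457, and without 1 library Bcan -0.14 to 0.0153, Hapln1 -0.11 to 0.0206, Mmp9 -0.0669 to 0.18 and Ncan -0.12 to 0.16. In epileptic sgKcna1 against control sgLacZ, Acan was 0.0036 with voom, 0.0606 with the unmapped share, 0.0755 with sex, 0.15 as the difference of mean log2 CPM, 0.14 without the 6 libraries and -0.24 to 0.29 without 1 library. Tnc was -0.14 with voom, -0.0415 without the 2 libraries, -0.0109 with the kept share, -0.0223 as the difference of means, -0.54 without the 6 libraries and -0.0464 to 0.29 without 1. Hapln1 was 0.0623 with voom, 0.0473 without the 2 libraries, 0.0507 without the 6 and -0.0814 to 0.0449 without 1. With the kept share Bcan was -0.12, Hapln4 -0.0128 and Tnr -0.15, and without the 6 libraries Ncan was -0.0539 and Mmp9 0.35, while Mmp9 was -0.25 to 0.0093 without 1 library. Has2 had too few reads for the fit.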
